A study of Homo sapiens with 4 samples.

Results

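The miR-183, miR-96 and miR-182 cluster is a group of 3 microRNA (miRNA) hairpins on chromosome 7. Its members here are all 6 strands that the deposited table lists for these hairpins, of 1345 miRNA rows in all, chosen by name: the 5p and the 3p strand of each. Small-RNA sequencing gave the level of each mature miRNA in HCT116, a human colorectal carcinoma cell line, carrying an shRNA against SAE2 that doxycycline switches on. SAE2 is the catalytic subunit of the enzyme that activates SUMO, a small protein attached to other proteins. The 4 libraries comprise 2 labelled minus and 2 labelled plus, taken here to mean cells without and with doxycycline. The drug was given for 3 days according to a protocol that the labels repeat for every library. Of the minus libraries, replicate 1 is labelled sh1 and replicate 2 sh2, for 2 cell lines with independent shRNAs. Plus replicate 2 is labelled sh2, and plus replicate 1 carries no shRNA number and was read as sh1 by elimination. All 4 libraries thus come from shRNA lines, no line without an SAE2 shRNA was analysed here, and an effect of doxycycline itself cannot be told apart from that of the knockdown. SAE2 mRNA is not read by these libraries, so the knockdown was not checked.

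As background, the hairpins of the cluster are thought to be cut from a common primary transcript. The Microprocessor complex and then Dicer trim each hairpin to a short duplex. An Argonaute protein keeps mostly one strand of it, here the 5p strand, and the other strand is usually degraded. The kept strand recognises messenger RNAs largely through its seed, bases 2 to 8 from the 5′ end. The cluster is known from sensory organs, where miR-96 seed mutations cause hearing loss, and it is often raised in epithelial tumours, colorectal carcinoma included. FOXO1 and FOXO3, transcription factors that restrain growth, are among the targets described for miR-96 and miR-182.

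The 5p strands carry nearly all reads of the cluster, and their seeds show how alike they are. Mature sequences are from RefSeq (GRCh38.p14, all 6 strands matched by name), written 5′ to 3′ with the seed in capitals.
miR-183-5p: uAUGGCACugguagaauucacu
miR-96-5p: uUUGGCACuagcacauuuuugcu
miR-182-5p: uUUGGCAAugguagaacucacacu
With positions counted from 1 at the 5′ end, the seed of miR-182-5p differs from that of miR-96-5p by A8C. It differs from that of miR-183-5p by U2A and A8C, and miR-96-5p differs from miR-183-5p by U2A. No seed of bases 2 to 8 is thus shared between members, while miR-182-5p and miR-96-5p share bases 1 to 7. Over the whole strand, seed included, the likeness is another one. miR-182-5p and miR-183-5p are identical at 18 of 22 positions and share the run UGGUAGAA from position 9 to 16, whereas miR-182-5p and miR-96-5p are identical at 12 of 23.

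The 3p strands, whose low level is one of the points below, have seeds unlike these and unlike each other.
miR-183-3p: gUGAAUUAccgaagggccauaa
miR-96-3p: aAUCAUGUgcagugccaauaug
miR-182-3p: uGGUUCUAgacuugccaacua
The miR-96 and miR-182 hairpins show from which part of the precursor each strand is cut, with both mature strands in capitals.
MIR96: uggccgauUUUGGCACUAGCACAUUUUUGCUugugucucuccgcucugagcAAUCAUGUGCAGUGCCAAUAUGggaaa
MIR182: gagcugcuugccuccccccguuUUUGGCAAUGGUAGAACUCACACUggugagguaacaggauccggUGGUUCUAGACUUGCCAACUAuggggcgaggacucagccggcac

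In GENCODE 29 (GRCh38) the hairpins lie on the minus strand at chr7:129774905-129775014 (MIR183), chr7:129774692-129774769 (MIR96) and chr7:129770383-129770492 (MIR182). The deposited table has no coordinates. No other annotated gene overlaps a hairpin, so none is exonic or intronic there. The nearest protein-coding or long intergenic RNA genes are NRF1, on the opposite strand and 13301 bases from MIR182, and AC084864.1, on the same strand and 8356 bases from MIR183. In the direction of the strand, miR-96-5p begins 227 bases and miR-182-5p 4518 bases after the start of miR-183-5p. miR-183 and miR-96 are thus close neighbours, and miR-182 stands apart.

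**Figure D1:**
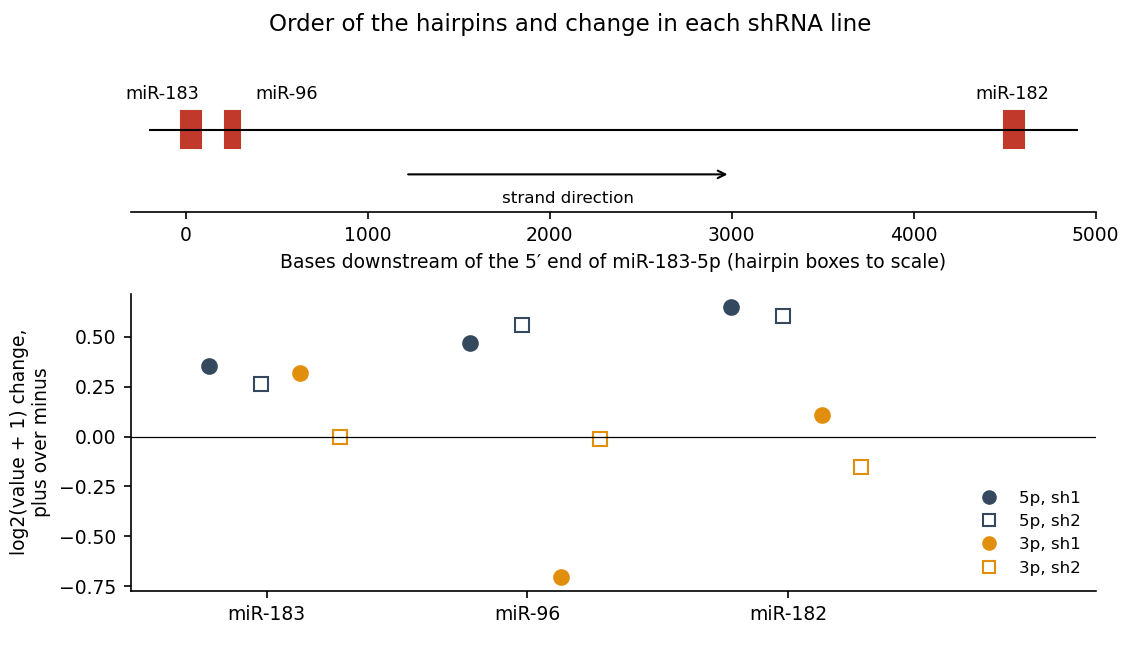
Top, order and spacing of the 3 hairpins in bases downstream of the 5′ end of miR-183-5p. Bottom, change on the log2(value + 1) scale from the minus to the plus library of each shRNA line (filled, sh1; open, sh2) for the 5p (blue) and 3p (orange) strands, 1 library per line and condition. All 5p points lie between 0.26 and 0.65, and the 3p points lie between −0.70 and 0.32.

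The libraries summed to between 9700472 and 10519207 normalised read counts, the values as deposited, in which 1 count is worth about 1 read. The cells expressed the miRNAs that mark epithelium. Their 6 listed strands summed to 527521 and 523788 in the minus and to 574580 and 586636 in the plus libraries. Of the 6, 3 rose, and the most abundant, miR-31-5p and miR-200c-3p, did not pass. This is beside rises in 13.4% of all miRNAs tested and in 30.7% of those with a mean of at least 10000. The 6 blood strands summed to between 991 and 1207, without separation of the conditions, and none of the 4 tested passed. The 6 stroma strands summed to between 14118 and 16937, with the conditions overlapping. Of these, miR-143-3p and miR-199a-3p rose (limma adjusted p = 0.0414 and 0.00484), miR-145-5p fell (0.0125) and 2 others tested did not pass. Under quantile normalization none of these was called, and miR-143-3p was also not called with equal totals. The rise of miR-143-3p rested on plus replicate 2, at 4143, as plus replicate 1 at 2857 lay below minus replicate 1 at 2892. Of the neuron and muscle list, miR-124-3p stood at 13.1 in both minus libraries and at 31.8 and 22.5 in the plus libraries, and miR-9-5p, which made up nearly all of that list, rose. The part of such RNA in the results was not tested. Separate cultures within a line are not described in the labels, so p-values measure only the spread between these libraries, 1 per line and condition.

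With induction the 5p strands of all 3 hairpins rose, miR-182-5p by 1.54-fold, miR-96-5p by 1.43-fold and miR-183-5p by 1.24-fold, while no 3p strand passed the test. The test was limma on log2(value + 1) over 709 miRNAs whose mean was at least 10, with Benjamini-Hochberg adjustment over all of them and a threshold of 0.05. Of all miRNAs tested, 13.4% rose and 15.1% fell, or 95 and 107. The balance turned with the scaling, at 109 and 90 under median-ratio scaling, 68 and 107 with equal totals and 47 and 54 under quantile normalization. It was 6 and 1 without plus replicate 1, and 7 and 1 when plus replicate 2 was left out. Among the 75 with a mean of at least 10000, the level range of the 5p strands, 30.7% rose. The 3 rises among the 5 cluster strands tested are to be read beside these shares, and the cluster was chosen with earlier results of these data known.

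miR-182-5p, the most abundant strand of the cluster, stood at 62955 and 66383 normalised counts in minus replicates 1 and 2 and at 98679 and 101027 in plus replicates 1 and 2. Both plus libraries lay far above both minus libraries, and the gap of 32296 between the lowest plus and the highest minus value exceeded the distance within either pair. The means were 64669 ± 2424 and 99853 ± 1661 (SD, n = 2 each), and the log2 change was 0.63 ± 0.08 (SE, limma adjusted p = 4.48e-08, 95% interval 0.47 to 0.79). In rank among all 1345 rows it went from 34 and 31 in the minus to 21 and 18 in the plus libraries.

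miR-96-5p, which has the shortest hairpin of the cluster, stood at 38796 and 35737 in the minus and 53613 and 52627 in the plus libraries. The conditions again did not overlap, and minus replicate 2 was the lowest of the 4. The means were 37267 ± 2164 and 53120 ± 697 (SD, n = 2 each), with a log2 change of 0.51 ± 0.08 (SE, limma adjusted p = 3.05e-06, 95% interval 0.35 to 0.68). Its rank went from 45 and 46 to 41 and 40.

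miR-183-5p, first in the order of the cluster, stood at 61096 and 64084 in the minus and 78093 and 76844 in the plus libraries. Here too both plus libraries were above both minus libraries, by a smaller margin relative to the level. The means were 62590 ± 2112 and 77468 ± 883 (SD, n = 2 each), with a log2 change of 0.31 ± 0.08 (SE, limma adjusted p = 0.00288, 95% interval 0.15 to 0.47). A position of both plus libraries above both minus libraries was found in 29.1% of all miRNAs tested. An exact permutation test (two-sided) gave 0.33 for each 5p strand, and no smaller p is possible with 2 against 2 libraries.

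The fit behind these calls had 2 residual and 43.0 prior degrees of freedom, so its spread was mostly borrowed from other miRNAs. Whether this is why calls were lost in the following fits was not tested. Leaving out plus replicate 1 ended all 3 (adjusted p from 0.0630 to 0.0992), as did leaving out plus replicate 2 (0.0543 to 0.0743), a fit with no level filter and a fit with no mean-variance trend, and that of miR-183-5p was also lost under quantile normalization (log2 change 0.13) and without either minus library.

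**Figure D2:**
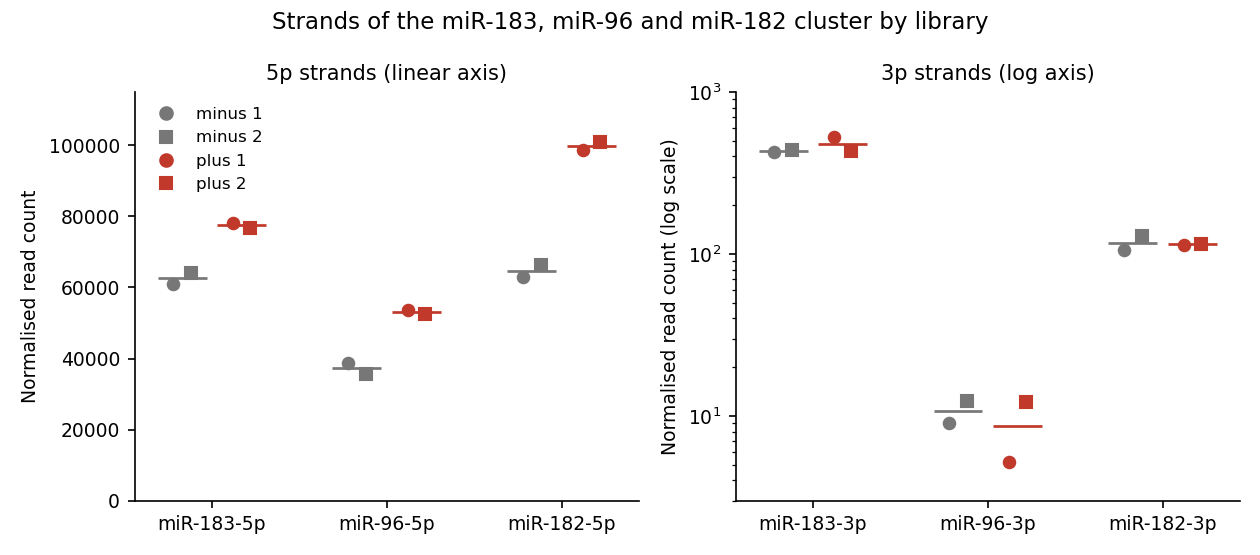
Normalised read count of each strand in each library (circles, replicate 1; squares, replicate 2; grey, minus; red, plus), with a horizontal bar at the mean of 2 libraries. The 5p strands (left, linear axis) are higher in both plus libraries, and the 3p strands (right, log axis) overlap between conditions.

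The 3p strands were present at a small fraction of the level of their partners. miR-183-3p stood at 423 and 435 normalised counts in the minus and 527 and 434 in the plus libraries. Plus replicate 1 was high, and plus replicate 2 lay between the minus libraries. The log2 change was 0.16 ± 0.14 (SE, limma adjusted p = 0.409), and its 95% interval of −0.12 to 0.43 includes the change of miR-183-5p.

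miR-182-3p stood at 106 and 129 in the minus and 114 and 115 in the plus libraries. The plus libraries were nearly equal and lay between the minus libraries. The log2 change was −0.02 ± 0.20 (SE, limma adjusted p = 0.941), and the 95% interval of −0.42 to 0.37 does not reach the 0.63 of miR-182-5p.

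miR-96-3p, at 9.07 and 12.3 in the minus and 5.18 and 12.2 in the plus libraries, was below the level needed for the test and close to the floor of 3 reads, which is 2.83 to 3.08 normalised counts. The plus libraries were the lowest and nearly the highest of the 4. Estimated reads summed to 22 for minus and 17 for plus, a ratio of 0.780 with a 95% exact binomial interval of 0.389 to 1.54. Such intervals cover counting error only, since reads are not independent molecules. Tested with no level filter, its log2 change was −0.36 (limma adjusted p = 0.696).

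Ratios between strands within a library do not depend on a single scaling factor per library, which the deposited values follow closely but not exactly. Of such ratios, 3 were taken between the 5p strands. The ratio of miR-182-5p to miR-183-5p was 1.03 and 1.04 in the minus libraries, so that these strands were level, and 1.26 and 1.31 in the plus libraries. The mean log2 ratio changed by 0.32, against a standard deviation of 0.005 between the minus and 0.04 between the plus libraries. It was higher with induction in both lines, by 0.29 in sh1 and 0.34 in sh2.

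The ratio of miR-96-5p to miR-183-5p, the close pair of hairpins, was 0.635 and 0.558 in the minus and 0.687 and 0.685 in the plus libraries. The plus values were the highest, yet the minus libraries differed from each other by more than minus replicate 1 differed from the plus libraries. The change by line was 0.11 in sh1 and 0.30 in sh2 on the log2 scale, and leaving out minus replicate 2 brought the mean change of 0.20 down to 0.11.

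The ratio of miR-182-5p to miR-96-5p was 1.62 and 1.86 in the minus and 1.84 and 1.92 in the plus libraries, and the conditions overlapped. Its mean log2 change of 0.11 was smaller than the standard deviation of 0.14 between the minus libraries. The members that share bases 1 to 7 were thus not separated in their change beyond the spread. Over the 6 ratios examined, 5 reached an exact two-sided permutation p of 0.33 (Benjamini-Hochberg adjusted 0.400), which is the smallest possible, so that no ratio could pass a threshold of 0.05.

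The make-up of the cluster differed between the conditions accordingly. miR-182-5p made up 38.7% and 39.9% of the 5p sum in the minus and 42.8% and 43.8% in the plus libraries. miR-183-5p went the other way, with 37.5% and 38.6% in the minus and 33.9% and 33.3% in the plus libraries. The share of miR-96-5p was 23.8% and 21.5% against 23.3% and 22.8%, without separation. In order of level, miR-182-5p and miR-183-5p overlapped between the minus libraries and were both above miR-96-5p. In the plus libraries the order was miR-182-5p, miR-183-5p, miR-96-5p without overlap. One read stands for one mature strand of 21 to 24 bases, so no length correction applies, but ligation and amplification can favour some sequences and levels of different strands are comparable only roughly.

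**Figure D3:**
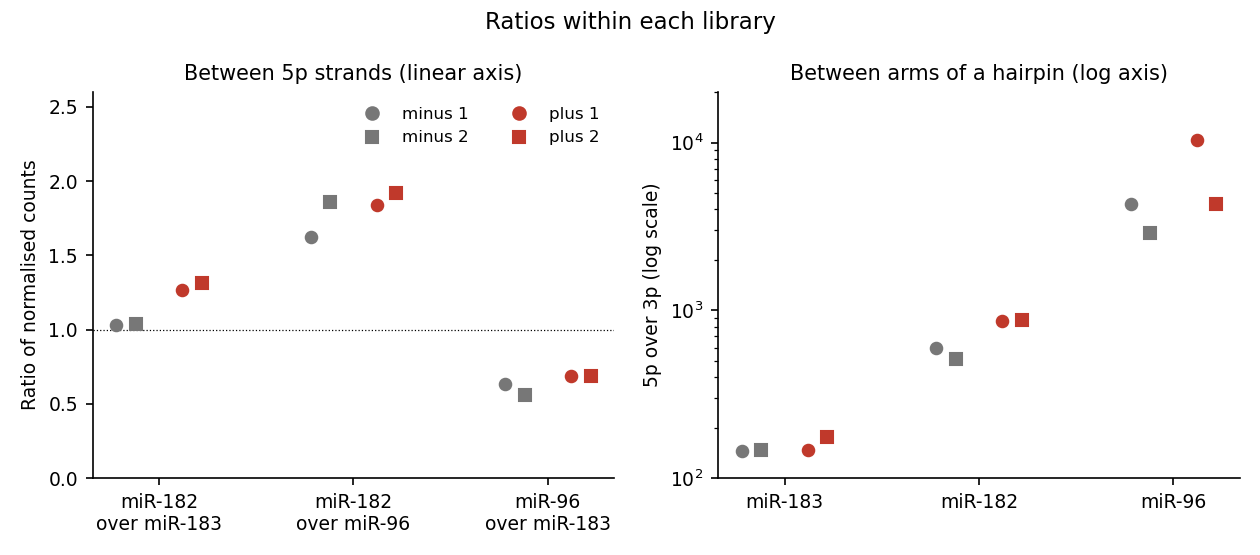
Ratios of normalised counts within each library, between 5p strands (left, linear axis, dotted line at 1) and between the 5p and 3p strand of a hairpin (right, log axis). The ratio of miR-182-5p to miR-183-5p is 1.03 and 1.04 in the minus and 1.26 and 1.31 in the plus libraries, and that of miR-182-5p to its 3p strand is 595 and 516 in the minus and 865 and 875 in the plus libraries.

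The balance of the arms differed between the hairpins. The 3p strand made up 0.168% (95% exact binomial interval 0.137 to 0.203) and 0.193% (0.162 to 0.228) of the reads of miR-182 in minus replicates 1 and 2. In plus replicates 1 and 2 it made up 0.116% (0.0950 to 0.139) and 0.114% (0.0941 to 0.137). The plus values were lower and nearly equal, and the interval of minus replicate 1 meets that of plus replicate 1 only at its lower end. The 5p to 3p ratio was 595 and 516 in the minus against 865 and 875 in the plus libraries. This is a 1.57-fold change of the ratio, close to the 1.54-fold rise of the 5p strand, as the 3p strand stayed near its level.

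For miR-183, which kept the most of its 3p strand, the share was 0.688% and 0.675% in the minus and 0.671% and 0.562% in the plus libraries. Only plus replicate 2 was low, with an interval of 0.510 to 0.618 against 0.624 to 0.757 in minus replicate 1. The 3p strand of miR-96 made up between 0.00959% and 0.0343% of its hairpin's reads, from 5 to 13 reads in a library. Its 5p to 3p ratio was 4277 and 2898 in the minus and 10350 and 4300 in the plus libraries, so that plus replicate 2 lay just above minus replicate 1. The mean log2 change of 0.92 (exact two-sided permutation p = 0.33) became 0.29 and 1.56 when plus replicate 1 or 2 was left out and 1.20 and 0.64 when minus replicate 1 or 2 was, so its size rests on few reads of single libraries.

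A shift of this kind was also seen outside the cluster. Among all other hairpins with both arms tested, the major to minor ratio was higher in both plus than in both minus libraries for 63 (34.8%), with a median log2 change of 0.05 over all. The change was larger than the 0.65 of miR-182 in 15 of them, and larger than the 0.15 of miR-183 in 71.

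Within each line there is 1 library per condition and so no test. All 5p strands were higher in the plus library. On the log2(value + 1) scale miR-182-5p changed by 0.65 in sh1 and 0.61 in sh2, miR-96-5p by 0.47 and 0.56, and miR-183-5p by 0.35 and 0.26. The order miR-182-5p, miR-96-5p, miR-183-5p was the same in both lines, and the gap between lines was under 0.1 for each strand. The 3p strands had no such common course, with miR-183-3p at 0.32 in sh1 and −0.004 in sh2, miR-182-3p at 0.11 and −0.15, and miR-96-3p at −0.70 and −0.01.

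The cluster as a whole held 1.66% and 1.72% of all normalised counts in the minus libraries and 2.35% and 2.20% in the plus libraries. Both plus libraries were above both minus libraries, with means of 1.69% ± 0.04 and 2.27% ± 0.11 (SD, n = 2 each, exact two-sided permutation p = 0.33). In counts, the members summed to 163386 and 166780 in the minus and 231031 and 231060 in the plus libraries. Beside it, miR-21-5p, the most abundant miRNA, held between 19.9% and 21.7% of a library, and the miR-181 family went from 0.242% ± 0.03 to 1.098% ± 0.15 (SD, n = 2 each).

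Among the 75 miRNAs whose mean was at least 10000, the log2 change of miR-182-5p ranked 4 after miR-181a-5p, miR-34a-5p and miR-22-3p. miR-96-5p ranked 6 and miR-183-5p 14, and the median of the group was 0.12. In normalised counts gained, miR-182-5p ranked 5 with 35184. The distance between the plus libraries was small for these strands, at 0.03, 0.03 and 0.02 on the log2 scale for miR-182-5p, miR-96-5p and miR-183-5p, against a median of 0.10 over the 75. Between the minus libraries it was 0.08, 0.12 and 0.07, against a median of 0.07.

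miRNAs of like level did not share one course. Next above miR-182-5p in mean level was let-7i-5p, which fell with a log2 change of −0.26 (limma adjusted p = 0.0111), and next below was miR-151a-5p at 0.19 (adjusted p = 0.0750). miR-183-5p lay between miR-30e-5p at 0.04 and miR-151a-3p at 0.18, neither of which passed (adjusted p = 0.775 and 0.0929). miR-96-5p lay between miR-200a-3p and miR-125a-5p, which both rose, at 0.26 and 0.34 (adjusted p = 0.0142 and 0.00110). The call of let-7i-5p was lost under median-ratio scaling, those of miR-200a-3p and miR-125a-5p under quantile normalization, and that of miR-200a-3p also with equal totals.

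**Figure D4:**
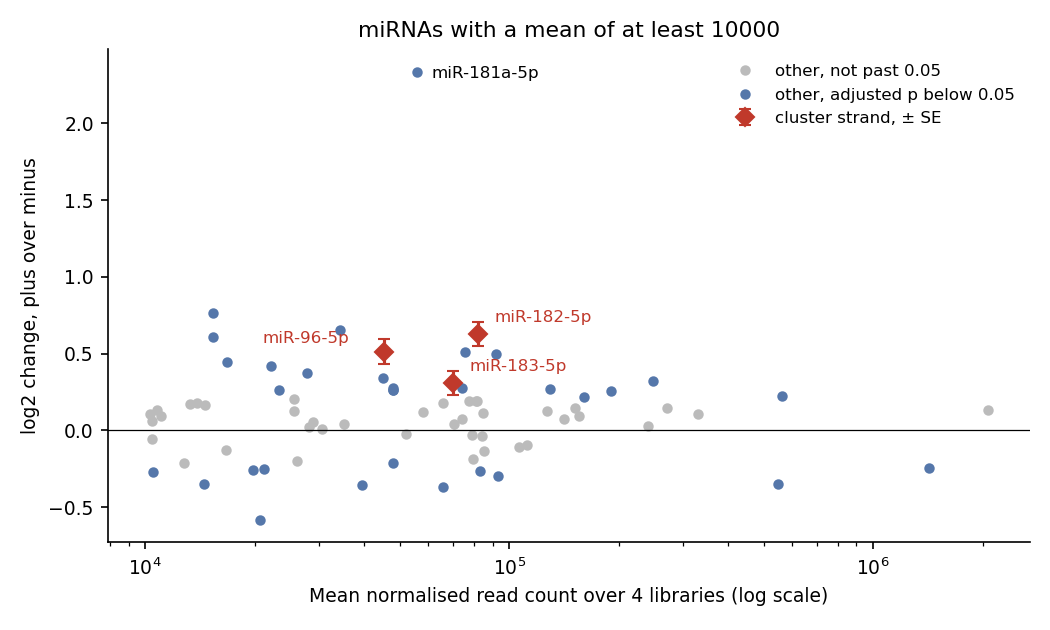
Log2 change, plus over minus, against the mean normalised count (log axis) of the 75 miRNAs at a mean of 10000 or more, with the cluster's 5p strands as red diamonds with their standard errors. miR-182-5p at 0.63 and miR-96-5p at 0.51 lie in the upper part of the group and miR-183-5p at 0.31 nearer the middle.

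The miRNAs with a pattern over the 4 libraries most like that of miR-182-5p were sought among 187 others with a mean of at least 1000, by the Euclidean distance between centred log2(value + 1) values. In order of distance they were miR-28-3p (0.08), miR-28-5p (0.11), miR-193b-3p (0.11), miR-34a-5p (0.15) and miR-331-5p (0.16). Their log2 changes were 0.61, 0.52, 0.60, 0.76 and 0.46, and all 5 rose. miR-96-5p was at a distance of 0.18 and miR-183-5p of 0.32, both farther from miR-182-5p than the 5 were. The 5 were picked as the nearest of 187, so no conclusion about the cluster is drawn from this. With 4 libraries, distance mostly reflects the size of the change, and it is given as a description.

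Among miRNAs with the same seed, only miR-1271-5p shared bases 2 to 8 with a member, namely miR-96-5p, and with them bases 2 to 7 of miR-182-5p. It comes from chromosome 5 and is printed here because its seed is that of miR-96-5p.
miR-1271-5p: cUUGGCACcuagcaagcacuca
It stood at 35.3 and 49.2 in the minus and 35.01 and 64.3 in the plus libraries, with the conditions overlapping, and did not pass (log2 change 0.18, limma adjusted p = 0.669). The seed UUGGCAC was thus carried almost wholly by miR-96-5p in these cells. miR-2681-3p, which shares bases 2 to 7 with miR-96-3p, had 5 estimated reads over the 4 libraries.

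The other miRNAs of the long arm of chromosome 7 on the list did not rise. Of 10 listed strands that were found, 7 were tested, 5 fell and 2 did not pass, beside falls in 15.1% of all miRNAs tested. Both strands of miR-335 are among the 5, so the falls do not stand for 5 separate hairpins. The other falls were of miR-29a-5p, miR-29b-1-5p and miR-592, with means of 348, 205 and 37.5. The more abundant miR-29a-3p and miR-29b-3p were the 2 that did not pass. The median log2 change of the 7 tested was −0.37 against −0.03 over all. miR-29a-3p, the most abundant, was at 0.03 (limma adjusted p = 0.830). miR-335-5p and miR-335-3p, from an intron of the imprinted gene MEST, fell with log2 changes of −0.35 and −0.91 (limma adjusted p = 0.00134 and 9.33e-11). miR-335-3p stood at 7596 and 7245 in the minus and 3655 and 4261 in the plus libraries. The falls numbered 2 under median-ratio scaling and 3 under quantile normalization, with both miR-335 strands among them and, under the latter, miR-29a-3p at −0.15.

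Of the listed epithelial and intestinal miRNAs, 7 of 15 tested strands rose, none fell and 8 did not pass, with a median log2 change of 0.26. Both strands of miR-200b are among the 7, so the rises do not stand for 7 separate hairpins. Rises were 13.4% of all miRNAs tested and 30.7% of those with a mean of at least 10000, where 6 of the 15 lie. The most abundant were miR-200c-3p at 0.13 (limma adjusted p = 0.257), miR-200b-3p, which rose by 0.28 (0.00729), and miR-203, which rose by 0.26 (0.0172). Members of the miR-200 family keep cells epithelial by repressing ZEB factors. The rises numbered 8 under median-ratio scaling, 4 with equal totals and 3 under quantile normalization, with miR-203 not called under the last 2 of these.

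Of the miRNAs outside the cluster that have FOXO1 or FOXO3 as a described target, 6 of 8 tested strands rose, none fell and 2 did not pass, with a median log2 change of 0.33. Strands were counted singly, and how many of the 6 come from neighbouring hairpins was not tested. These rises are beside 13.4% of all miRNAs and 30.7% at a mean of at least 10000, where 5 of the 8 lie. The most abundant were miR-221-3p and miR-222-3p, which rose by 0.22 each (limma adjusted p = 0.0438 and 0.0440), and miR-27a-3p, which rose by 0.51 (1.31e-05). Its paralog miR-27b-3p, at −0.03, did not pass (adjusted p = 0.853). The rises numbered 5 under median-ratio scaling, 4 with equal totals and 3 under quantile normalization. miR-221-3p was not called under the first 2 of these, miR-222-3p under the last 2 and miR-27a-3p under the last. FOXO mRNA or protein is not measured in these libraries.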

How the data were processed

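For each mature miRNA the authors deposited a signal close to read counts scaled by a factor per library, with library totals that still differ. This is read from the values, since low ones cluster at multiples of a step of 0.945 to 1.03 per library. The multiples are not exact. In minus replicate 2, miR-3180, miR-3170 and miR-3127-3p stood at 12.18, 12.22 and 12.26, less than a step apart. In plus replicate 2, miR-129-1-3p stood at 0.01, far below a step. A further adjustment of the values is thus possible, and estimated reads are approximate. Of values under 60, 86.9% to 100% were within 0.1 of a whole number of steps, so no count model was run, and estimated reads (9566036 to 10292766 per library) served for shares, ratios and intervals. The submitters' processing notes name TopHat2 2.0.8b, edgeR and the build hg19 (GRCh37) with no role, and the titles name cutadapt. How reads were counted, and against which miRNA annotation, is not given in the sources used here. Columns were matched to samples by library number and index (they write sh4 where the titles write sh2).

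limma 3.58.1 (R 4.3.3) was fitted to log2(value + 1), plus against minus, with a mean-variance trend, 2 residual and 43.0 prior degrees of freedom, and tested on simulated data. Fold changes on that scale understate those of low miRNAs. Alternatives were 3 scalings, 2 pseudocounts, 3 level filters, no trend, a robust prior, the replicate block and each library left out. The block pairs libraries of the same shRNA line, which the labels give for sh2 and elimination for sh1. The correlation of same-numbered deviations from the group means was 0.06 over 709 miRNAs and 0.44 over the 75 with a mean of at least 10000, the level of the 5p strands. Estimated reads of replicates differed beyond sampling noise, with a chi-square per degree of freedom of 19.9 for minus and 67.0 for plus, so they were counted as separate libraries. Ratios and shares used Python 3.11.15, with exact permutation tests.

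The members and lists were chosen with earlier results of these data known. Named beside the members are the 3 most abundant of the chromosome 7, the epithelial and intestinal and the FOXO lists. The seed relatives found in the data, the level neighbours and the 5 most alike in pattern are named too. Of the stroma strands only those that passed are named, so miR-199a-3p is and the more abundant miR-126-3p (limma adjusted p = 0.319) is not. No blood strand is named. miR-335-3p's values, miR-27b-3p and miR-124-3p were added after their values were seen.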

Additional observations from a re-analysis of the deposited data

Results flagged for a closer look

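The log2 changes of miR-182-3p and miR-183-3p had opposite signs in the shRNA lines, with 1 library per line and condition, and the difference was not tested. For miR-182-3p the change was 0.11 in sh1 and −0.15 in sh2, a difference of 0.26. For miR-183-3p it was 0.32 in sh1 and −0.004 in sh2, a difference of 0.32, where the sh2 libraries were practically level at 435 and 434 normalised counts.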

How the results depend on the processing

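The 5p strands kept the direction of their change under all 3 scalings. The other alternatives could not turn it, since both plus libraries lay above both minus libraries in the values as deposited. The number of miRNAs called, 202, was 101 under quantile normalization, 126 at a minimum mean of 1, 5 with no level filter and 5 with no trend, and 7 to 113 with 1 library left out. For miR-182-5p the log2 change of 0.63 was the same value but not called with no level filter (limma adjusted p = 0.0564) or no trend (0.0702), and ranged from 0.59 to 0.67 with 1 library left out and from 0.44 to 0.67 over the scalings. For miR-96-5p the value of 0.51 was not called with no level filter (0.0706) or no trend (0.0842), and ranged from 0.45 to 0.57 with 1 library left out and from 0.29 to 0.55 over the scalings. For miR-183-5p the value of 0.31 was not called with no level filter (0.0968) or no trend (0.160), was 0.13 under quantile normalization (0.0797) and ranged from 0.27 to 0.34 with 1 library left out, not called in any of these 4. The fit with no level filter tests more and lower miRNAs; the cause of the other losses was not tested. The replicate block gave 216 calls, 200 of them shared, and changed no call of a cluster strand. miR-182-3p turned to 0.017 under median-ratio scaling and ranged from −0.16 to 0.12 with 1 library left out. The gain of the cluster in its share of the total, 0.584 percentage points, was 0.770 when miR-21-5p was left out, which makes the total smaller. As a ratio of plus to minus, the share changed little, at 1.35 with and 1.36 without miR-21-5p. Depth limits miR-96-3p, at 5 to 13 estimated reads in a library.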
